A study of Mus musculus with 8 samples.

Results

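The insulin receptor signalling genes described here are 9 named genes among the 31053 in the count table: the receptors Insr and Igf1r, the receptor substrates Irs1, Irs2 and Irs3, the PI3K regulatory subunit Pik3r1, the kinase Akt2, the transcription factor Foxo1 and the receptor inhibitor Grb14. They were named for their role in the pathway, with no threshold on a measured value but with earlier results of these data known. All 9 were measured and passed the filter on low counts, which left 9264 genes to test. RNA was sequenced in bulk from the brown adipose tissue (BAT) of 8 mice aged 8 weeks, 4 wild type (WT) and 4 db/db, and each WT library held 2374079 to 2615009 counts and each db/db library 2382722 to 3240074. The study's methods name male C57BL6/J mice as WT and B6.BKS(D)-Leprdb/J mice as db/db. Its resource list gives the db/db mice by stock number and not by strain name. The study's sources name different suppliers for WT in separate places, 1 of them the supplier of the db/db mice. Any effect of supplier or strain background cannot be told apart from genotype. The db/db mice carry an inherited mutation of the leptin receptor in every tissue, which makes them overeat, and tissue of both groups was collected after a fast, so that no fed state was measured. Lepr itself had 0 counts in all 8 libraries, so its own counts give no check of the genotype labels.

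Insulin binds the insulin receptor, a tyrosine kinase, which phosphorylates insulin receptor substrate (IRS) proteins. These recruit PI3K, whose lipid product brings AKT to the membrane, and AKT then drives glucose uptake and lipid synthesis and keeps FOXO transcription factors out of the nucleus. In adipose tissue the pathway promotes lipid storage and restrains lipolysis, and much of it is controlled by phosphorylation, which mRNA counts do not show.

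In db/db BAT the mRNAs of Insr, Irs2 and Akt2 were lower than in WT and that of Grb14, which binds the activated receptor and inhibits it, was higher. Irs2 was 3.24-fold lower, Insr 1.92-fold lower, Akt2 1.44-fold lower and Grb14 1.87-fold higher. Igf1r, Irs1, Irs3, Pik3r1 and Foxo1 did not pass the test. Thus 4 of 9 genes were called with edgeR's quasi-likelihood test at an adjusted p below 0.05, where 27.7% of all genes tested were called. In that fit 1 of the 9 was higher, against 15.8% of all genes, and 3 were lower, against 11.9%. The values of the genotypes did not overlap for 5 of the 9 (the 4 called and Irs1), against 28.1% of all genes. The median log2 fold change (db/db over WT) was 0.08 over the 9 genes and 0.01 over all genes tested. With only 9 genes, chosen with earlier results known, these counts are no result about the pathway as a whole. Values below are CPM (counts per 1000000 counts of the library, scaled by the TMM method), in the order of replicates 1 to 4, and each adjusted p comes from the edgeR fit over all genes tested. In bulk tissue, fewer cells that carry a transcript and less of it per cell cannot be told apart.

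**Figure D1:**
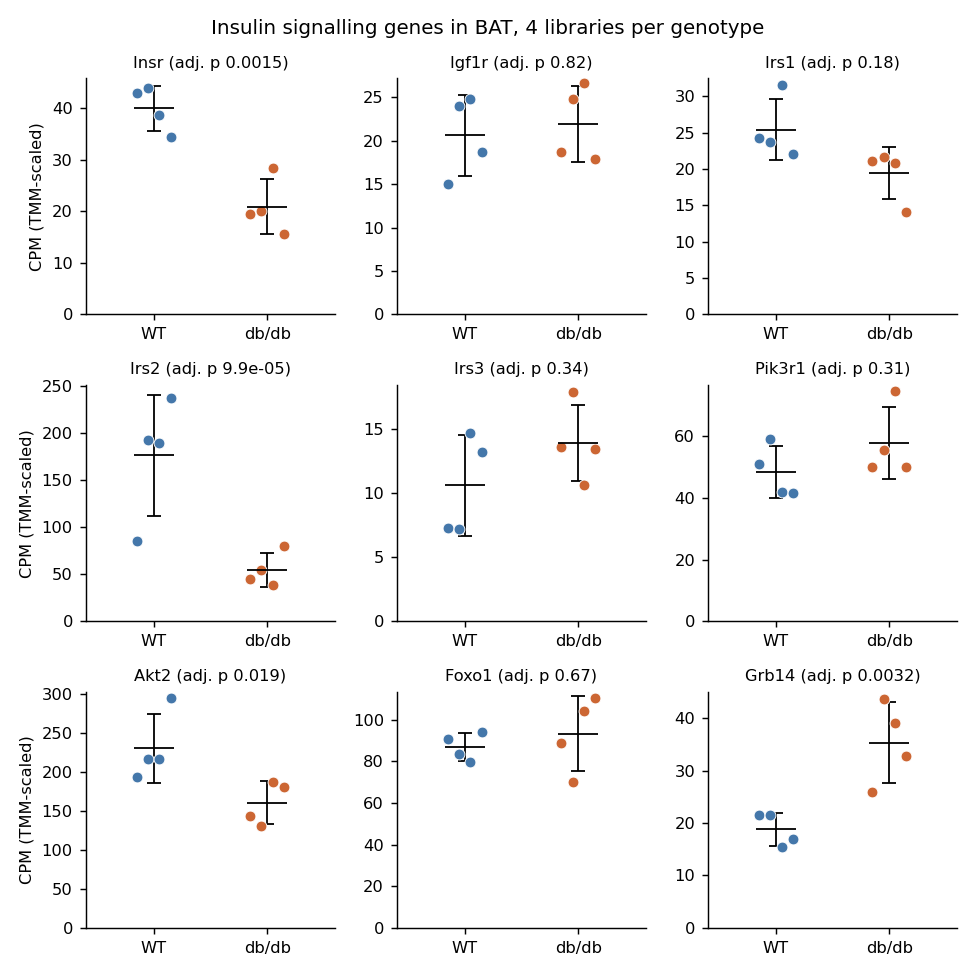
CPM (TMM-scaled, axes from 0) of each of the 9 genes in the 4 WT (blue) and 4 db/db (orange) libraries, with the mean and SD as lines and the adjusted p of the edgeR fit in each title. The db/db libraries lie below every WT library for Insr, Irs1, Irs2 and Akt2 and above every WT library for Grb14, and the groups overlap for the other 4 genes.

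Cell type markers moved with genotype, and this bears on every value that follows. The 10 skeletal muscle markers added up to 369 to 1264 CPM in WT against 1739 to 8731 CPM in db/db, highest in db/db replicate 1, and 10 of 10 were higher. For 8 macrophage markers the sums were 146 to 194 in WT and 668 to 1205 in db/db, with 7 of 8 higher and Cd14 not called. White adipocyte markers summed to 53.6 to 124 in WT and 1795 to 2823 in db/db, with 4 of 5 higher, and fibroblast markers to 420 to 529 and 819 to 1555, with 6 of 6 higher. Brown adipocyte markers went the other way, with WT sums of 8886 to 10553 and db/db sums of 3721 to 6764, and 5 of 6 tested lower. Endothelial markers summed to 270 to 321 in WT and 199 to 231 in db/db, with 3 of 6 lower, and 0 of 4 T cell markers passed the filter. General adipocyte markers, 8773 to 15639 in WT and 14461 to 19384 in db/db, overlapped between genotypes, with 2 of 5 higher. The labels name the stromal vascular fraction as the cell type, a fraction from which mature adipocytes are removed, whereas Adipoq, the adipocyte hormone adiponectin, had 2951 to 7021 counts per library and Ucp1, the brown fat uncoupling protein, 2455 to 6487, so the libraries hold abundant adipocyte RNA.

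**Figure D2:**
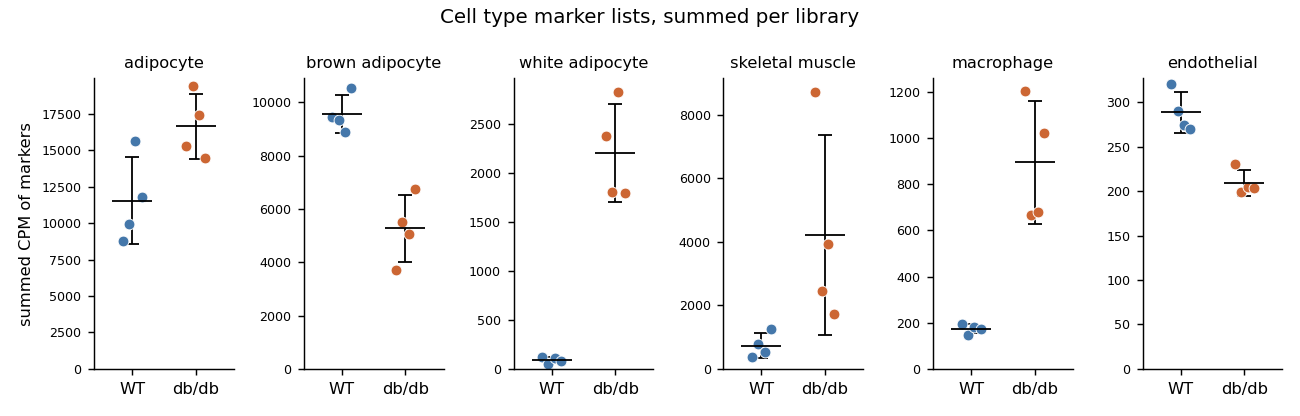
Summed CPM of 6 marker lists (adipocyte, brown adipocyte, white adipocyte, skeletal muscle, macrophage, endothelial) in each WT (blue) and db/db (orange) library, with the mean and SD as lines and axes from 0. Muscle, macrophage and white adipocyte sums were higher and brown adipocyte and endothelial sums lower in all 4 db/db libraries, and db/db replicate 1 had the highest muscle sum, 8731 CPM.

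Each marker score separated the genotypes without overlap. The muscle score was -1.33 to -0.07 in WT and -0.04 to 1.64 in db/db, and the macrophage score was -1.11 to -0.41 in WT and 0.45 to 1.09 in db/db, so in the fits that follow genotype and score are only partly distinguished. A fit with the muscle marker score as a covariate called 7.38% of all genes and 2 of the 9. Irs2 (log2 fold change -1.74) and Grb14 (1.23) were called in it, and Insr (-1.01, adjusted p 0.0937) and Akt2 (-0.67, adjusted p 0.116) were not. With the macrophage score 0.572% of all genes and 0 of the 9 were called, while 1, Grb14, had an unadjusted p below 0.05. In that fit Insr was at -0.61 (adjusted p 0.813), Irs2 at -1.06 (0.718), Akt2 at -0.32 (0.905) and Grb14 at 2.04 (0.123), all in the same direction as without the score. The part of the other cell types in these differences was not tested beyond these fits.

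Among the receptors, Insr encodes the insulin receptor (ENSMUSG00000005534, GRCm38 chr8:3122061-3279617, minus strand). Its WT libraries held 42.9, 43.9, 38.7 and 34.4 CPM and its db/db libraries 19.6, 20.04, 28.4 and 15.6 CPM, from 81 to 106 and 42 to 65 counts. Every db/db library was below every WT library. The mean was 40.0 ± 4.35 CPM in WT and 20.9 ± 5.36 CPM in db/db (SD, n = 4 each), a log2 fold change of -0.94 with a standard error (SE) of 0.20 (adjusted p = 0.00147). An exact two-sided permutation test over the 8 libraries gave p = 0.0286, the smallest that 4 against 4 libraries allow. Leaving out any 1 library moved the log2 fold change between -1.12 and -0.83 and kept the call.

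Igf1r encodes the closely related receptor for insulin-like growth factors (ENSMUSG00000005533, chr7:67952827-68233668, plus strand). It measured 14.97, 24.1, 24.8 and 18.7 CPM in WT and 18.7, 24.8, 26.6 and 17.9 CPM in db/db, so the groups covered nearly the same range. Its log2 fold change was 0.08 (SE 0.22, 95% interval -0.38 to 0.55, adjusted p = 0.818). Without WT replicate 1 it was -0.062 and without db/db replicate 3 it was -0.017, so no direction can be given. Within libraries the log2 ratio of Igf1r to Insr counts was -1.47, -0.85, -0.63 and -0.85 in WT and -0.07, 0.30, -0.09 and 0.18 in db/db. This ratio, which does not depend on library scaling, rose by 1.03 without overlap of the groups (exact two-sided permutation p = 0.0286, adjusted p = 0.0571 over 4 ratios), which missed the threshold after adjustment. With 4 ratios the adjusted p can pass 0.05 only where at least 3 of them reach the smallest exact p, so a miss is no sign of a small difference. The ratio is compared between genotypes and says nothing about which receptor is the more abundant.

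Igf2r, which clears IGF2 from the cell surface, was at a log2 fold change of 0.18 (SE 0.21, adjusted p = 0.566). Insrr, the orphan receptor of the family, had 0 counts in every library. Of the ligands, the insulin genes Ins1 and Ins2 had 0 counts everywhere and Igf2 at most 2, while Igf1 was at 0.03 (SE 0.34, adjusted p = 0.963).

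Of the substrates, Irs2 showed the largest change of the 9 genes (ENSMUSG00000038894, chr8:10984681-11008458, minus strand). IRS2 couples the receptor to PI3K, and its gene is known to be induced by FOXO proteins in fasting and repressed by insulin in liver. WT libraries held 85.8, 192, 189.8 and 238 CPM, against 44.5, 54.7, 38.6 and 79.6 CPM in db/db. The groups did not overlap, although WT replicate 1 lay just above db/db replicate 4. Means were 177 ± 64.4 CPM in WT and 54.4 ± 18.1 CPM in db/db (SD, n = 4 each), and the fitted level fell by 69.2%. Its log2 fold change was -1.70 (SE 0.26, adjusted p = 9.91e-05), and it ranged from -1.94 to -1.53 over the fits without 1 library, all of them called. The exons of Irs2 overlap those of 9530052E02Rik, which was not analysed here.

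Irs1, the first IRS protein described and the one most tied to insulin action in muscle and fat, differed less (ENSMUSG00000055980, chr1:82233101-82291416, minus strand). It had 24.3, 23.6, 31.6 and 22.1 CPM in WT and 21.1, 21.6, 20.8 and 14.1 CPM in db/db. All db/db libraries were below all WT libraries, but 3 of them by little. The log2 fold change was -0.39 (SE 0.21, 95% interval -0.82 to 0.05, adjusted p = 0.178), and the exact two-sided permutation test gave p = 0.0286, the smallest possible here. Without db/db replicate 4, the lowest library, the log2 fold change was -0.27. On the opposite strand its exons overlap Gm9747, which had 0 counts in all libraries.

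Irs3, an IRS gene that mice express in fat and that is a pseudogene in humans, was the least counted of the 9 (ENSMUSG00000047182, chr5:137643031-137645714, minus strand). WT libraries held 7.28, 7.17, 14.7 and 13.2 CPM and db/db libraries 13.5, 17.8, 10.6 and 13.4 CPM, from 17 to 39 and 24 to 56 counts. WT replicates 1 and 2 lay below all other libraries and the rest overlapped. The log2 fold change of 0.39 (SE 0.29, 95% interval -0.21 to 1.001, adjusted p = 0.341) did not pass the test. Irs4 had at most 4 counts in any library, and Dok4, a docking protein of the same family, was at -0.21 (adjusted p = 0.68). Dok1, a docking protein that dampens tyrosine kinase signalling and is abundant in blood cells, rose by 1.20 (SE 0.35, adjusted p = 0.0168). It had 2.97 to 6.39 CPM in WT and 7.44 to 13.5 CPM in db/db, from 7 to 17 and 20 to 45 counts. With so few WT counts it was not fitted under the filter of at least 10 counts in every library. The Dok1 call was lost without WT replicate 4 (adjusted p 0.0538) or db/db replicate 1 (0.0743), and with either marker score as covariate.

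The log2 ratio of Irs2 to Irs1 counts was 1.79, 2.99, 2.56 and 3.39 in WT and 1.05, 1.31, 0.87 and 2.43 in db/db. It fell by 1.27, from 2.68 ± 0.68 to 1.42 ± 0.70 (SD, n = 4 each, exact two-sided permutation p = 0.0571, adjusted p = 0.0762 over 4 ratios), with WT replicate 1 inside the db/db range. The difference in response between these substrates was thus not past the threshold with these libraries.

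The start regions of both substrate genes are shown because Irs2 fell and Irs1 did not pass the test, while both windows hold the same pair of short motifs. The windows run from 250 bases before to 50 bases after the RefSeq start in GRCm38.p6, and 8 of the 9 genes, all but Insr, had 1 or more such windows (12 in all). The Irs2 window lies upstream of the GENCODE M21 span given above, since RefSeq places the start farther upstream. Capitals mark TGTTTTG, a core of the insulin response sequences that FOXO proteins are known to bind, and CACGTG, an E-box. In Irs1 the E-box at -115 to -110 overlaps the first TGTTTTG by 2 bases, so that they form 1 capital stretch.
Irs1, chr1:82291390-82291689, minus strand: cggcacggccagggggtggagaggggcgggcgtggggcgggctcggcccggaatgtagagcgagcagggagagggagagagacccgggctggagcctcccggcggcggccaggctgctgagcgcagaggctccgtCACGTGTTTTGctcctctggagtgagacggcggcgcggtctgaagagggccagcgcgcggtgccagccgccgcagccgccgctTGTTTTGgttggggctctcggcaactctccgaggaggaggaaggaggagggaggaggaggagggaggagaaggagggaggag
Irs2, chr8:11008880-11009179, minus strand: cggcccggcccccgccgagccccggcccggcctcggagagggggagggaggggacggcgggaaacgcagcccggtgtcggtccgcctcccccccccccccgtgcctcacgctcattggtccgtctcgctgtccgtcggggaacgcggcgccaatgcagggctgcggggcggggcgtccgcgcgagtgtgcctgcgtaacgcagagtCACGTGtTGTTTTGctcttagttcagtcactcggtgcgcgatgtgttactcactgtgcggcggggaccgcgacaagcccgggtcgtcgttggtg
Counted from the start, TGTTTTG lay at -111 to -105 and -32 to -26 in Irs1 and at -37 to -31 in Irs2, and the Irs2 E-box at -44 to -39. Searched on both strands, TGTTTTG was in 6.28% and CACGTG in 7.15% of all 32851 windows of this length, and both were in 0.408%. The motifs were chosen after these sequences were seen, so the shares do not measure how unusual the pair is. The longest runs that the windows of Irs1 and Irs2 share have 10 bases, GTCACGTGTT and TGTTTTGCTC, and each of them was in 25 windows. GTAAACA, another forkhead motif, is in 3.65% of windows and in none of the 12 windows of these genes, which says only that the letters are not there. The Grb14 window held 5 copies of the GC box GGGCGG, a motif found in 35.7% of windows, and none of the other motifs. The window of Foxo1, which was not called, likewise held 5 copies and none of the other motifs. These matches describe the sequence and show no binding.

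Pik3r1 encodes the p85-alpha regulatory subunit of PI3K, which docks on phosphorylated IRS proteins (ENSMUSG00000041417, chr13:101680563-101768217, minus strand). It had 51.0, 59.1, 42.1 and 41.6 CPM in WT and 50.2, 55.7, 74.9 and 50.2 CPM in db/db, where replicate 3 was the highest library of all and the rest overlapped with WT. The log2 fold change was 0.25 (SE 0.17, 95% interval -0.12 to 0.62, adjusted p = 0.314). The other PI3K genes on the list were not called either (0 of 5 tested in edgeR and limma-voom, 1 at an unadjusted p below 0.05, and 0 of 7 in DESeq2, 2 at an unadjusted p below 0.05). Over all genes edgeR called 27.7% and DESeq2 2694 of 16409 with a p, where a gene without an adjusted p counts as not called. With so few PI3K genes the count is no result about them. The catalytic subunit Pik3ca was at 0.05 (adjusted p = 0.896), Pik3cb at -0.31 (0.581), Pik3r2, a second regulatory subunit, at 0.34 (0.433), and the inhibitor Pik3ip1 at -0.25 (0.553). Pik3cd, the catalytic subunit of leukocytes, was at 1.24 (SE 0.48, adjusted p = 0.0613), and Pik3cg, another leukocyte subunit, had too few counts to pass the filter, 0 to 2 in WT and 4 to 8 in db/db. Pik3r3 was also under the filter, at 2 to 12 counts. The log2 ratio of Pik3r1 to Pik3ca differed by 0.23 between genotypes (exact two-sided permutation p = 0.514), with values of 0.05 to 0.81 in WT and 0.32 to 1.31 in db/db.

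Akt2 encodes the AKT kinase most tied to insulin-stimulated glucose uptake (ENSMUSG00000004056, chr7:27591552-27640826, plus strand). WT libraries held 193, 217, 216 and 294 CPM and db/db libraries 144, 130.4, 186 and 180.4 CPM. The groups did not overlap, but the highest db/db library, at 186 CPM, was close to the lowest WT library, at 193 CPM. The mean fell from 229.7 ± 44.1 to 160.1 ± 27.4 CPM (SD, n = 4 each), a log2 fold change of -0.52 (SE 0.16, adjusted p = 0.0194). The call rested on single libraries, since it was lost without WT replicate 4 (-0.39, adjusted p 0.0873) and without db/db replicate 2 (-0.44, adjusted p 0.0669). Akt1 was at -0.01 (SE 0.14, adjusted p = 0.965), and whether it differs from Akt2 in response was not tested. Pdpk1, the kinase PDK1 that phosphorylates AKT, fell by 0.55 on the log2 scale (SE 0.16, adjusted p = 0.0167), from 49.8 to 65.8 CPM in WT to 33.7 to 48.7 CPM in db/db.

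Foxo1, the main FOXO factor that AKT holds out of the nucleus, was at similar levels in both genotypes (ENSMUSG00000044167, chr3:52268336-52353221, plus strand). It measured 90.6, 83.6, 79.7 and 94.2 CPM in WT and 88.7, 70.3, 104 and 110.5 CPM in db/db, so that the db/db libraries lay on both sides of the WT range. The log2 fold change was 0.10 (SE 0.15, 95% interval -0.22 to 0.42, adjusted p = 0.672). Foxo3 was at -0.07 (adjusted p = 0.833) and Foxo4 at -0.14 (0.584), and Foxo6 had at most 3 counts. Foxo1 exons overlap Gm20402, which had 0 counts in every library.

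Grb14 encodes an adaptor that binds the activated insulin receptor and blocks its kinase (ENSMUSG00000026888, chr2:64912476-65024987, minus strand). Its values were 21.4, 21.5, 15.4 and 16.98 CPM in WT and 25.9, 43.6, 39.0 and 32.7 CPM in db/db, from 40 to 53 and 86 to 137 counts. Each db/db library was above all WT libraries, db/db replicate 1 by the least. The mean was 18.8 ± 3.12 CPM in WT and 35.3 ± 7.70 CPM in db/db (SD, n = 4 each), a log2 fold change of 0.90 (SE 0.21, adjusted p = 0.00325) that ranged from 0.78 to 1.02 without single libraries and kept its call. The log2 ratio of Grb14 to Insr was -0.98, -1.003, -1.29 and -0.99 in WT and 0.39, 1.09, 0.45 and 1.03 in db/db. It rose by 1.80 and the groups did not overlap (exact two-sided permutation p = 0.0286, adjusted p = 0.0571 over 4 ratios). It combines the counts of both genes and is no evidence apart from theirs. Grb10, a relative of Grb14 that also inhibits the receptor, was at 0.74 (SE 0.30, adjusted p = 0.0773), with no overlap between the genotypes but no call.

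**Figure D3:**
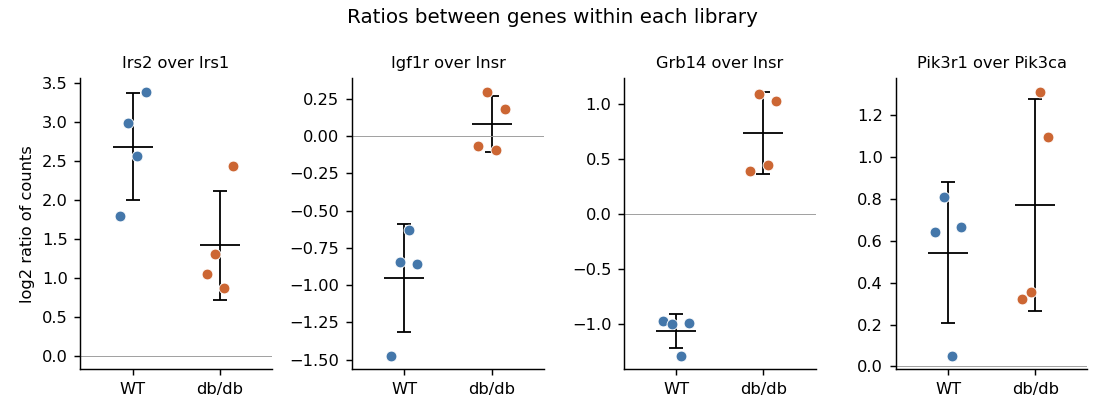
Log2 ratio of the counts of 2 genes within each library, for Irs2 over Irs1, Igf1r over Insr, Grb14 over Insr and Pik3r1 over Pik3ca, in WT (blue) and db/db (orange), with the mean and SD as lines. The Igf1r and Grb14 ratios to Insr do not overlap between genotypes, and the other 2 ratios do.

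The wider pathway was described by a list of 74 further genes in 11 roles, of which 58 passed the filter. In db/db 3 of the 58 rose, where 15.8% of all genes did, and 7 fell, where 11.9% did. Together 17.2% were called, below the 27.7% of all genes, and 13 of the 58 did not overlap between genotypes, where 28.1% of all genes did not. The median log2 fold change was -0.07, beside 0.01 over all genes. With the muscle score as covariate 2 of the 58 were called, Deptor and Pde3b, where 7.38% of all genes were. With the macrophage score, where 0.572% of all genes were called, neither was (adjusted p 0.175 and 0.510), and the 1 gene called was Igf1, at -2.94 against 0.03 without the score. In the adaptor role 2 of 12 were called, or 16.7%. Sh2b2 (APS), which binds the activated receptor and was the largest called fall among the 58, went from 117, 138, 91.7 and 108 CPM in WT to 31.3, 46.8, 43.9 and 62.9 CPM in db/db (log2 fold change -1.30, SE 0.19, adjusted p = 6.35e-05). With the muscle score as covariate it was at -0.86 (adjusted p 0.0558) and with the macrophage score at -0.22 (0.943). Grb2, which links receptors to the RAS pathway, rose by 0.60 (SE 0.18, adjusted p = 0.0211), a call lost without WT replicate 1 (0.0629), WT replicate 3 (0.0682) or db/db replicate 4 (0.0775).

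In the mTOR role 4 of 14 were called, 28.6% and close to the 27.7% of all genes. Deptor, an inhibitor of mTOR, rose from 330.2, 304, 224 and 274 CPM in WT to 516, 577, 530.1 and 551 CPM in db/db (log2 fold change 0.94, SE 0.14, adjusted p = 6.49e-05). Eif4ebp1, a translation repressor that mTOR complex 1 inactivates, fell by 0.61 (SE 0.14, adjusted p = 0.00303). The kinase Mtor fell by 0.46 (SE 0.15, adjusted p = 0.0296) and Rictor, the defining subunit of mTOR complex 2, which phosphorylates AKT, fell by 0.80 (SE 0.25, adjusted p = 0.0233). The calls of both were near the threshold: Rictor lost its call without WT replicate 1 (0.0562) or db/db replicate 4 (0.0694), and Mtor without WT replicate 2 (0.0745), WT replicate 4 (0.0859), db/db replicate 1 (0.0673) or db/db replicate 2 (0.0574).

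Among the phosphatases 1 of 7 tested was called, or 14.3%, where 27.7% of all genes were called and 11.9% were lower. Inppl1 (SHIP2), which removes a phosphate from the PI3K product, fell by 0.50 (SE 0.16, adjusted p = 0.0237), and its call was lost without WT replicate 2 (0.103) or db/db replicate 2 (0.0711). The list's leukocyte counterpart Inpp5d (SHIP1) was under the filter, with 0 to 3 counts in WT and 6 to 23 in db/db, and it was called in the fit on every gene with a count (2.45, adjusted p 0.0113). Of the AKT substrates 1 of 8 (12.5%, also under the 27.7% of all genes) was called, Pde3b, the phosphodiesterase through which insulin restrains lipolysis. It had 197, 210.2, 227 and 179.5 CPM in WT and 105, 115, 118 and 84.1 CPM in db/db, a log2 fold change of -0.95 (SE 0.14, adjusted p = 7.54e-05). Slc2a4, the glucose transporter GLUT4, was at -0.24 (SE 0.15, adjusted p = 0.249). Of the feedback inhibitors 0 of 3 tested were called or had an unadjusted p below 0.05 in edgeR and limma-voom, too few genes to set against the 27.7% of all genes. In DESeq2 (2694 called of 16409 genes with a p) 0 of 7 were called and 1, Socs3, had an unadjusted p below 0.05. Genes without an adjusted p in DESeq2 count as not called. Socs3, an inhibitor of receptor signalling induced by cytokines and leptin, was under the filter at 2 to 4 counts in WT and 4 to 19 in db/db, and it was called in the fit on every gene with a count (log2 fold change 1.73, adjusted p 0.0384).

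**Figure D4:**
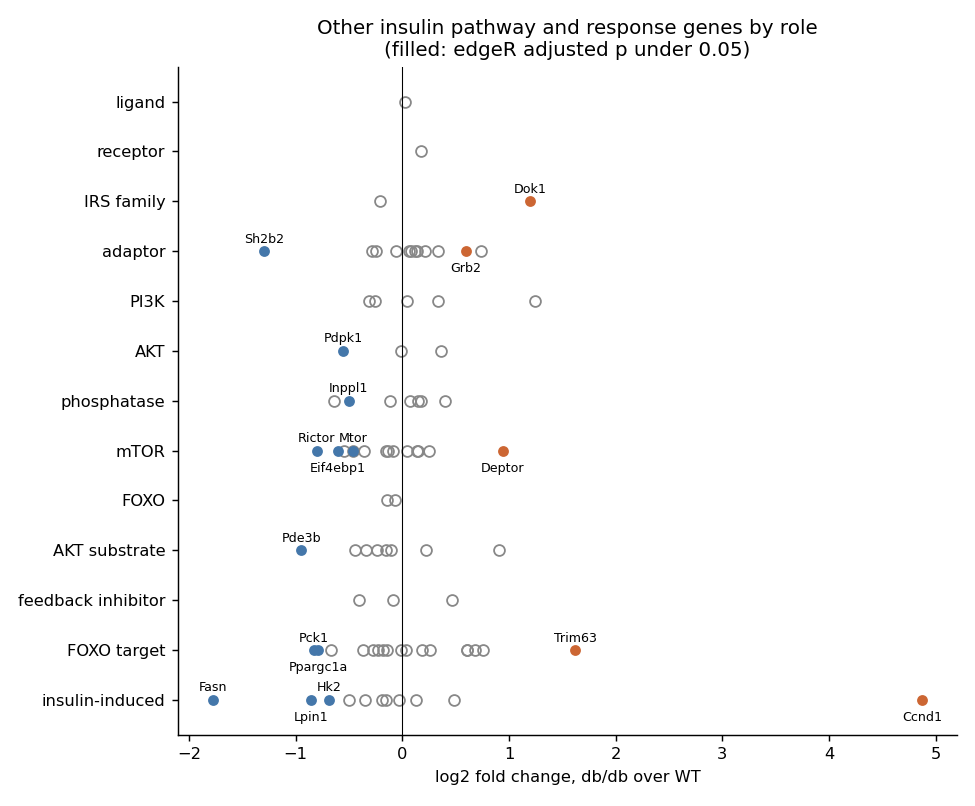
Log2 fold change (db/db over WT), for genes past the filter, of the further pathway genes by role and of FOXO target and insulin-induced genes. Filled points passed an adjusted p of 0.05 (orange higher, blue lower), open points did not, and most roles hold points on both sides of 0, with Ccnd1 at 4.87 as the largest rise and Fasn at -1.77 as the largest fall.

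Of 19 genes known to be raised by FOXO1 or fasting, 17 were tested. In db/db 1 was higher and 2 were lower, 17.6% called, below the 27.7% of all genes (15.8% higher, 11.9% lower), with a median log2 fold change of -0.01. Pck1, an enzyme of the path that leads to glycerol 3-phosphate for triglyceride synthesis in fat, fell by 0.83 (SE 0.23, adjusted p = 0.0132). Ppargc1a, a coactivator of thermogenic genes that is also on the brown adipocyte list, fell by 0.79 (SE 0.23, adjusted p = 0.0158). The Ppargc1a call was lost without WT replicate 4 (0.0732). Trim63, a ubiquitin ligase best known from muscle atrophy, rose by 1.62 (SE 0.51, adjusted p = 0.0248), with 6.07, 16.5, 27.4 and 44.6 CPM in WT and 158, 49.6, 62.9 and 17.5 CPM in db/db. The groups overlapped, and db/db replicate 1, the library with the highest muscle marker sum, held the highest value. Its call was lost without that library (0.86, adjusted p 0.150), without WT replicate 1 (adjusted p 0.0772) or WT replicate 2 (0.0730), under DESeq2 (0.156) and limma-voom (0.0642), and with the muscle score as covariate the log2 fold change was -0.98. G6pc and Igfbp1, typical liver targets, had 0 counts, and Pdk4 was at -0.67 (adjusted p = 0.143).

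Genes known to be induced by insulin were 13, of which 11 were tested, 1 was higher and 3 lower. That is 36.4% called, where 27.7% of all genes were (15.8% higher, 11.9% lower), and the median log2 fold change was -0.19. Fasn, the fatty acid synthase, fell from 6572, 6142, 4151 and 6788 CPM in WT to 1962, 2116, 694 and 2152 CPM in db/db (log2 fold change -1.77, SE 0.27, adjusted p = 9.57e-05). Lpin1, a phosphatase of triglyceride synthesis, fell by 0.86 (SE 0.18, adjusted p = 0.00192), and Hk2, which traps glucose in the cell, fell by 0.68 (SE 0.21, adjusted p = 0.0232). The Hk2 call was lost without WT replicate 2 (0.0951), WT replicate 4 (0.0873), db/db replicate 2 (0.0710) or db/db replicate 3 (0.0524). Ccnd1, the cell cycle regulator cyclin D1, rose from 4.45, 2.53, 6.39 and 7.64 CPM in WT to 102, 207, 164 and 149.5 CPM in db/db (log2 fold change 4.87, SE 0.27, adjusted p = 1.78e-09). It was not fitted under the filter of at least 10 counts in every library. Srebf1, the lipogenic transcription factor, was at -0.03 (adjusted p = 0.965). Of the 17 FOXO target and 11 insulin-induced genes tested, 2 were called with the muscle score as covariate (7.38% of all genes), Fasn and Ccnd1, and 1 with the macrophage score (0.572% of all genes), Ccnd1.

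**Figure D5:**
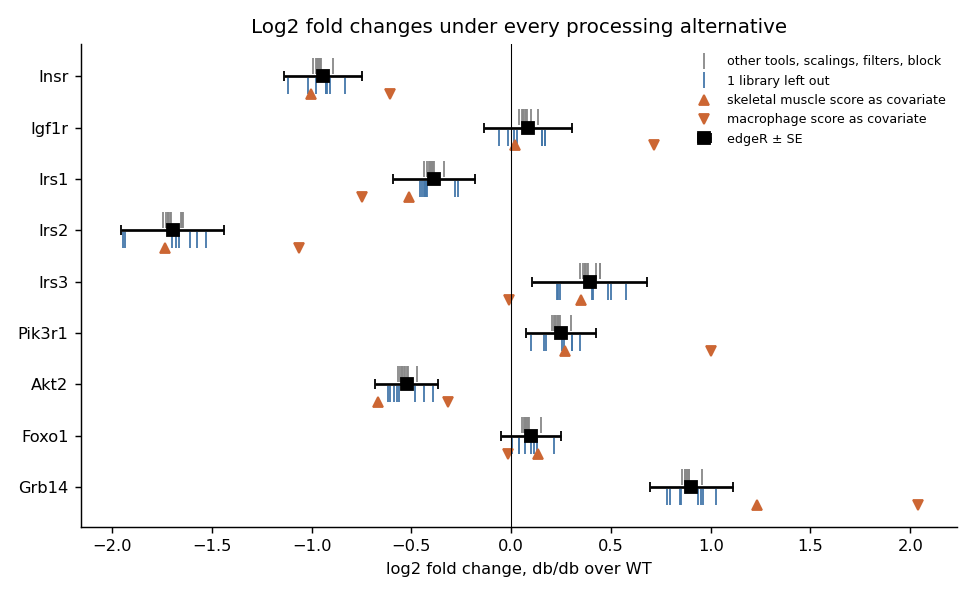
Log2 fold change (db/db over WT) of the 9 genes in the edgeR fit (black squares with SE), with other tools, scalings, filters and the replicate block (grey ticks), with 1 library left out (blue ticks) and with a skeletal muscle or macrophage score as covariate (triangles). Insr, Irs2, Akt2 and Grb14 stayed on their side of 0 in every fit shown.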

How the data were processed

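Bulk RNA-seq counts of BAT from 4 WT and 4 db/db mice were analysed, with groups and replicate numbers from the labels. According to the study's methods, total RNA was made into digital mRNA-seq libraries and sequenced single-end, reads were trimmed with bbduk, aligned to mm10 with STAR and counted with HTSeq, whereas the submitters' processing notes name Trimmomatic, HISAT2 and DESeq2, so the aligner is uncertain. The deposited values are raw counts per gene, made by the authors from these reads. Strand use and collapsing of molecular identifiers are not given in the sources used here. The authors' normalized table was not used. Gene identifiers were matched to GENCODE M21 (GRCm38) for 31011 of 31053 genes.

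The counts were fitted over the whole table with edgeR 4.0.16 in R 4.3.3 (filterByExpr set to 10 counts and a summed count of 15, TMM scaling, genotype as the sole term, quasi-likelihood test, Benjamini-Hochberg adjustment, threshold 0.05). Intervals of log2 fold changes used the t quantile of the fit, and ratios used log2 CPM with a prior count of 2. DESeq2 1.42.0, limma 3.58.1 voom, other scalings and filters, a replicate block, marker scores as covariates and leaving out each library were alternatives. Total depth was 2374079 to 3240074 counts per library, and 3 counts, the most that an observed 0 allows, correspond to 0.902 to 1.33 CPM. This floor covers counting error only. Libraries of one genotype differed from each other by more than sampling noise (chi-square per degree of freedom at least 3.99), and the study gives 4 mice per group, which matches 1 mouse per library.

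The 9 genes and all lists were chosen with earlier results of these data known. Named were all 9 genes, the called genes of each list role (at most 4 rises and 4 falls), the genes of the receptor, IRS, PI3K, AKT and FOXO roles (1 of them is not reported here), the leading markers and the 3 genes most correlated with Insr, Irs1 and Irs2. Ins1, Ins2, Igf1, Igf2, Grb10, Slc2a4, Inpp5d, Socs3, Pdk4, G6pc, Igfbp1 and Srebf1 were named after their values were seen, and the motifs were chosen after the promoter sequences were seen. The same fit was also run on counts simulated with the dispersions of the main fit. Of genes given a log2 change of 1 it called 106 of 191, with 8 false calls. Of genes given a log2 change of 2 it called 184 of 184, with 5 false calls, and without any change it made 0 calls. A gene without a call may thus still differ.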

Additional observations from a re-analysis of the deposited data

Results flagged for a closer look

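Within groups of 4 libraries, 4 of 62 groups held a library far from the others by Dixon's test, where chance gives about 3.1. Irs1 in db/db replicate 4 had 14.1 CPM, against 20.8 to 21.6 CPM in the other db/db libraries. Rictor in the same library had 6.32 CPM, against 9.75 to 10.2 CPM. Fasn in db/db replicate 3 had 694 CPM, against 1962 to 2152 CPM. The log2 ratio of Grb14 to Insr in WT replicate 3 was -1.29, against -1.003 to -0.98 in the other WT libraries.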

How the results depend on the processing

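Under the 9 alternatives of tool, scaling, filter and block, 4 of the 9 genes were called each time and all 81 single values kept their direction and side of the threshold, while 2018 to 3170 of all genes were called. Across the fits without 1 library the counts were 2236 to 2483 for all genes, 3 to 4 for the 9 genes (1 higher, 2 to 3 lower), 8 to 11 for the further pathway genes (2 to 3 higher, 5 to 8 lower) and 5 to 10 for the FOXO and insulin response genes. The latter were 7, with 2 higher and 5 lower; higher calls ranged from 1 (without WT replicate 1 or 2) to 5 (without db/db replicate 4), and lower calls from 3 (without WT replicate 4) to 6. In these fits log2 fold changes ranged from -0.062 (without WT replicate 1; -0.017 without db/db replicate 3) to 0.17 for Igf1r, -0.62 to -0.39 for Akt2, -0.46 to -0.27 for Irs1, 0.23 to 0.58 for Irs3, 0.10 to 0.35 for Pik3r1 and 0.01 to 0.21 for Foxo1. With every gene that had a count, 6 further pathway genes were higher (among them Socs3 and Inpp5d) and 13 FOXO and insulin response genes were called, 6 of them higher; DESeq2 and limma-voom each had 1 higher. Trim63 also lost its call with the replicate block (adjusted p 0.0973), and Mtor with at least 10 counts in every library (0.0517). With the muscle score as covariate the calls were 684 for all genes, 2 for the 9 (1 lower), 2 for the further pathway genes (1 higher, 1 lower) and 2 for the response genes (1 higher, 1 lower), and Trim63 turned to -0.98, Insr was at -1.01 and Akt2 at -0.67. With the macrophage score they were 53 for all genes, 0 for the 9 (0 higher, 0 lower), 1 for the further pathway genes (0 higher, 1 lower, Igf1) and 1 for the response genes (1 higher, 0 lower), with Insr at -0.61, Irs2 at -1.06, Akt2 at -0.32 and Grb14 at 2.04. It reversed Irs3 (-0.0098), Foxo1 (-0.014), Dok1 (-0.24), Inppl1 (0.0018), Trim63 (-0.85), Hk2 (0.61) and Lpin1 (0.28). The cause of these changes was not tested. With the replicate block 2557 genes were called, 4 of the 9 among them. For the ratios a sign-flip test over the 4 pairs of equal number gave unadjusted p of 0.125 to 0.75. Since 0.125 is the smallest that 4 pairs allow, no ratio could pass. Whether the numbers pair the mice is not given. Deviations from the group means correlated at 0.04, 0.05, -0.08 and -0.01 between equal numbers, and 2 of 4 matched their own number best, which cannot decide it. The smallest exact p is 0.0286 for 4 against 4 libraries and 0.0571 for 3 against 4, so the ratios cannot pass the threshold without 1 library. Depth limits Irs3 most, with 17 to 56 counts per library.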

Other observations

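Among 4531 genes with a mean of at least 20 CPM, the genes whose log2 CPM was closest to that of Insr over the 8 libraries were Ube3a (Pearson r 0.989), Hbs1l (0.983) and Adss (0.972). For Irs2 they were Arl4a (0.984), Dazap1 (0.960) and Slc12a2 (0.957), and for Irs1 they were Ddx3y (0.946), Tardbp (0.921) and Nsd1 (0.920). These r values are a description over libraries that fall into 2 genotypes, and they share library and depth.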
